A study of Penicillium citrinum with 6 samples.

Results

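The genes described here are PCI_7912, PCI_7911 and PCI_7946, 3 of the 9385 genes of *Penicillium citrinum* in the deposited tables. Their product names are non-reducing polyketide synthase albA, laccase abr2 and multicopper oxidase abr1. They were picked by identifier, with their FPKM values in all libraries already known, so their levels are given as a description and no test was run on them. FPKM counts fragments per kilobase of gene, scaled to the mapped fragments of the library, so levels of different genes can be compared per length.

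RNA sequencing of wild-type mycelium gave 6 libraries in 3 groups of 2, all grown from conidia at 25 °C. TL3D is mycelium on tobacco leaves at day 3, TL2D is mycelium on tobacco leaves at day 2, and CK2D is mycelium on Czapek-Dox plates at day 2. No label writes the codes out in full. Sampling days tie them to plates and leaves. Plates were sampled at day 2 only, so in TL3D against CK2D growth on leaves and the later day cannot be told apart. Whether the 2 replicates of a group were separate cultures is not stated, so a p-value here covers only the spread among the libraries, which may be technical. Up to 8217 genes reached 1 FPKM in a library, and read depth is unknown.

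Conidia are the asexual spores of moulds, and their colour comes from pigment laid into the spore wall. In *Aspergillus fumigatus*, where the pathway is best known, a polyketide synthase joins malonyl units into a naphthopyrone, Ayg1 shortens it to a hydroxynaphthalene, Arp2 reduces and Arp1 dehydrates the intermediates, and the copper enzymes Abr1 and Abr2 act at the end to give dihydroxynaphthalene melanin. The genes of that pathway are active there during spore formation, which is run by the regulators BrlA, AbaA and WetA in turn. The functions below are those of the names in the tables, and sequences were not used here. In bulk RNA a smaller share of spore-forming cells and less RNA per such cell cannot be told apart.

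The polyketide synthase gene albA, which stands at the entry of the pathway, had 130 and 133 FPKM in TL3D libraries, 31.3 and 6.22 FPKM in TL2D libraries, and 411 and 395 FPKM in CK2D libraries. No value of one group lay within another, and the order was plates, then leaves at day 3, then leaves at day 2. Mean levels were 132 ± 2.13 FPKM in TL3D, 18.8 ± 17.7 FPKM in TL2D and 403 ± 11.7 FPKM in CK2D (SD, n = 2 each). The TL2D mean was 4.66% of the CK2D mean, and the TL3D mean was 32.7% of it.

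The laccase gene abr2 had 72.8 and 82.4 FPKM in TL3D libraries, 28.1 and 12.6 FPKM in TL2D libraries, and 249 and 231 FPKM in CK2D libraries. Its groups also stood apart and in the same order. Laccases are copper enzymes that oxidise phenols, and Abr2 is taken to act on the last intermediates of the pigment in *A. fumigatus*. Means were 77.6 ± 6.81 FPKM in TL3D, 20.3 ± 10.98 FPKM in TL2D and 239.8 ± 12.8 FPKM in CK2D (SD, n = 2 each), which put TL2D at 8.48% and TL3D at 32.4% of CK2D.

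The multicopper oxidase gene abr1 had 185 and 261 FPKM in TL3D libraries, 76.8 and 37.7 FPKM in TL2D libraries, and 378 and 304 FPKM in CK2D libraries. The order was again plates, leaves at day 3, leaves at day 2, but the gap between TL3D and CK2D was small beside the distance between replicates. Means were 223 ± 54.1 FPKM in TL3D, 57.3 ± 27.6 FPKM in TL2D and 341 ± 52.7 FPKM in CK2D (SD, n = 2 each). TL2D stood at 16.8% and TL3D at 65.4% of CK2D. As a share of CK2D, abr1 thus had the smallest differences of the 3 genes from the day 2 plates in both leaf groups.

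**Figure D1:**
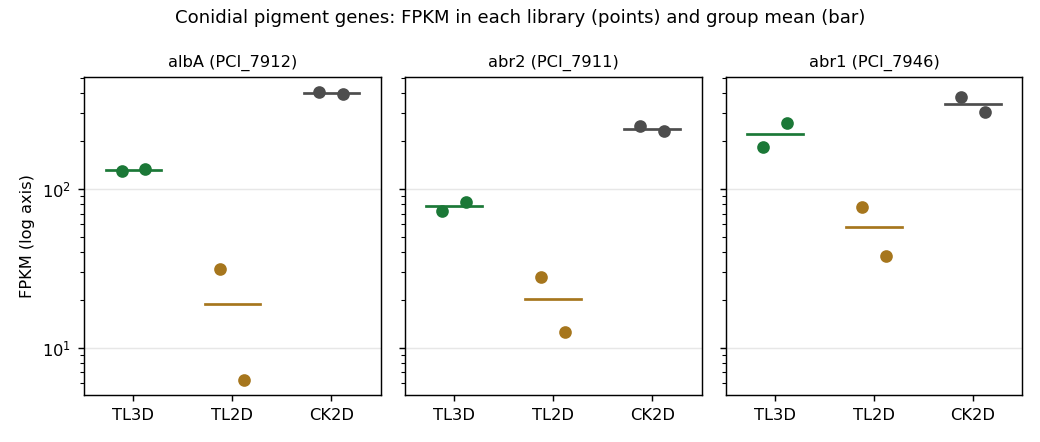
FPKM on a log axis of albA, abr2 and abr1 in TL3D, TL2D and CK2D, with 1 point per library and a bar at the group mean. In each panel the 2 CK2D libraries are highest, the TL3D libraries lie between, and the TL2D libraries are lowest and, on the log axis, farthest apart; albA had 31.3 and 6.22 FPKM there.

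On the log2(FPKM + 1) scale, the differences between TL2D and CK2D were −4.72 for albA, −3.60 for abr2 and −2.63 for abr1. Between TL3D and TL2D they were 3.12, 1.98 and 2.01 in the same order, and between TL3D and CK2D −1.60, −1.62 and −0.62. These comparisons share libraries, so they are not independent of each other. All 3 genes had non-overlapping groups in the order CK2D, TL3D, TL2D, and so did 14.6% of 8407 expressed genes. Pair by pair, 45.7% of tested genes were lower without overlap in TL2D than in CK2D, 29.5% were higher in TL3D than in TL2D, and 43.3% were lower in TL3D than in CK2D. Because these values chose the genes, nothing is read from these shares. Among all genes of a library, ranked from the highest FPKM, albA was in place 756 and 758 in TL3D, 3262 and 6485 in TL2D, and 226 and 242 in CK2D.

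As a ratio of FPKM, the TL2D libraries lay farther apart than either other pair for each pigment gene, although in FPKM itself the abr1 libraries of TL2D were the closest pair. For albA the higher TL2D library had 5.03 times the FPKM of the lower one, against 1.02 times in TL3D and 1.04 times in CK2D. The ratio in TL2D was 2.24 for abr2 and 2.04 for abr1. In all 3 cases replicate 1 was the higher library. So it was in 277 of the 394 genes at least 2-fold apart among those with at least 1 FPKM in both TL2D libraries. Of 7854 genes with at least 1 FPKM in both TL2D libraries, 5.02% were at least 2-fold apart and 37 genes were at least 5-fold apart, while 0.172% in TL3D and 0.587% in CK2D were at least 2-fold apart. With both TL2D libraries the log2 difference of albA between TL2D and CK2D was −4.72. Without TL2D replicate 1 it was −5.81, and without TL2D replicate 2 it was −3.64, so the value depended on which library was kept. Without replicate 1 and without replicate 2, the values were −4.15 and −3.05 for abr2, and −3.13 and −2.13 for abr1.

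The proportion between the 3 genes also shifted. The ratio of albA to abr2 was 1.79 and 1.62 in TL3D libraries and 1.65 and 1.71 in CK2D libraries, and it was 1.11 and 0.495 in TL2D libraries. The ratio of abr1 to abr2 was 2.54 and 3.17 in TL3D libraries and 2.73 and 3.00 in TL2D libraries, against 1.52 and 1.32 in CK2D libraries. So albA and abr2 stood in a near-constant ratio in the TL3D and CK2D libraries only, while abr1 was higher relative to abr2 in each of the 4 leaf libraries than in either plate library.

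A further 7 genes carry names of melanin-type pathways, and unlike the 3 genes above they were tested. The test was limma on log2(FPKM + 1), with Benjamini-Hochberg adjustment across every gene tested, and a call needs an adjusted p under 0.05. It called 54.2% of all genes in TL2D against CK2D, 10.1% in TL3D against TL2D and 58.3% in TL3D against CK2D. Of the 6 that passed the filter on low values, 4 fell and 1 rose in TL2D against CK2D, with a median log2 difference of −2.85. Over all 8286 genes tested, 29.4% fell, 24.8% rose and the median was −0.10. In TL3D against TL2D, 4 of the 6 rose and none fell (median 1.70), while 6.77% of 8222 genes rose, 3.3% fell and the median was −0.02. In TL3D against CK2D, 4 fell and 1 rose (median −0.91), while 30.2% of 8356 genes fell, 28.1% rose and the median was −0.04.

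The 4 that fell are the heptaketide hydrolyase gene ayg1, the hydroxynaphthalene reductase gene arp2, the scytalone dehydratase gene arp1 and another gene named laccase abr2. The gene ayg1 (PCI_7947), whose number follows that of abr1, had 116 and 155 FPKM in TL3D libraries, 23.2 and 23.7 FPKM in TL2D libraries, and 302 and 268 FPKM in CK2D libraries. It fell in TL2D against CK2D (log2 −3.54 ± 0.10 SE, limma adjusted p = 0.000176), rose in TL3D against TL2D (2.47 ± 0.16, adjusted p = 0.0112), and was lower in TL3D than in CK2D (−1.08 ± 0.14, adjusted p = 0.000549). Its 3 groups did not overlap.

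The gene arp2 (PCI_5105) had the highest FPKM of the named pathway in the TL3D and CK2D libraries, though not in TL2D, with 284 and 313 FPKM in TL3D libraries, 74.3 and 76.5 FPKM in TL2D libraries, and 884 and 861 FPKM in CK2D libraries. Its level fell in TL2D against CK2D (log2 −3.52 ± 0.08, limma adjusted p = 0.000137) and rose in TL3D against TL2D (1.97 ± 0.10, adjusted p = 0.0112). The preceding number is arp1 (PCI_5104), which had 90.4 and 95.2 FPKM in TL3D libraries, 18.7 and 22.0 FPKM in TL2D libraries, and 252 and 257 FPKM in CK2D libraries. It fell by 3.58 ± 0.11 on the log2 scale in TL2D against CK2D and rose by 2.14 ± 0.12 in TL3D against TL2D (limma adjusted p = 0.000239 and 0.0112). Set as a share of the CK2D mean, TL3D stood at 47.6% for ayg1, 34.2% for arp2 and 36.5% for arp1, beside 32.7% for albA, 32.4% for abr2 and 65.4% for abr1.

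**Figure D2:**
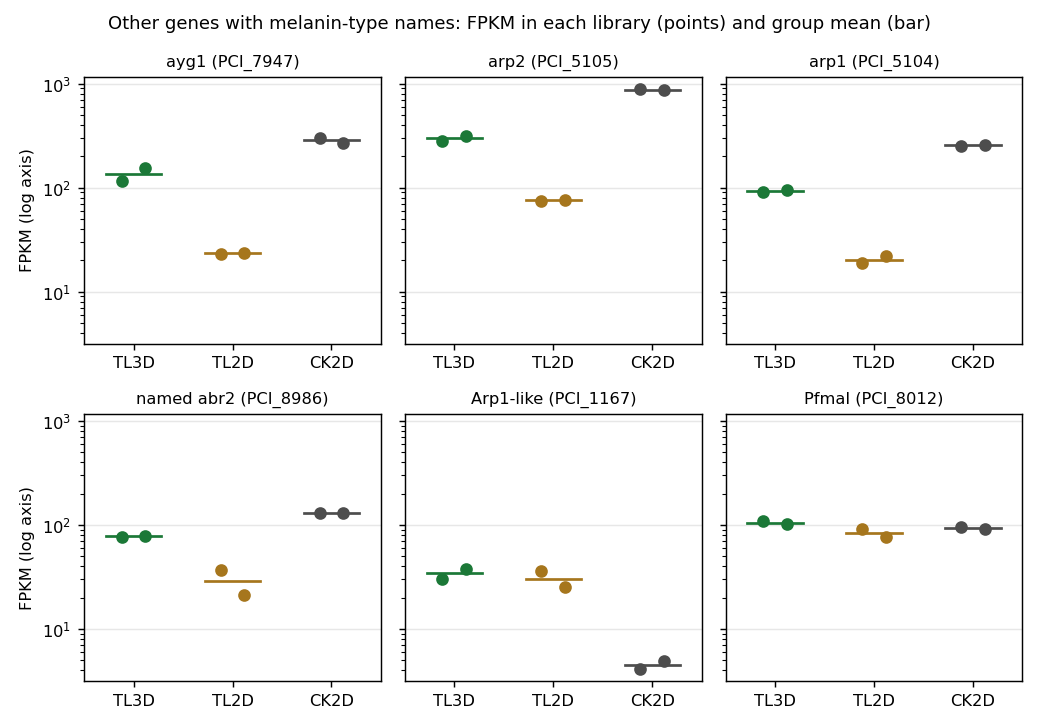
FPKM on a log axis of 6 other genes with melanin-type names in TL3D, TL2D and CK2D, with 1 point per library and a bar at the group mean. The genes ayg1, arp2, arp1 and PCI_8986 have the order CK2D, TL3D, TL2D; Arp1-like PCI_1167 is high in the leaf libraries, and PfmaI PCI_8012 lies between 77.3 and 108 FPKM in every library.

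In ayg1, arp2 and arp1 the TL2D replicates lay closer together than in albA, abr2 and abr1. The higher library had 1.02 times the lower one's FPKM for ayg1, 1.03 times for arp2 and 1.18 times for arp1, against 5.03, 2.24 and 2.04 for the 3 pigment genes. Within TL2D, the ratio of albA to arp2 was 0.421 in replicate 1 and 0.0813 in replicate 2, whereas the other 4 libraries had ratios from 0.425 to 0.465. This difference between pathway genes was seen after the values were known and was not tested.

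**Figure D3:**
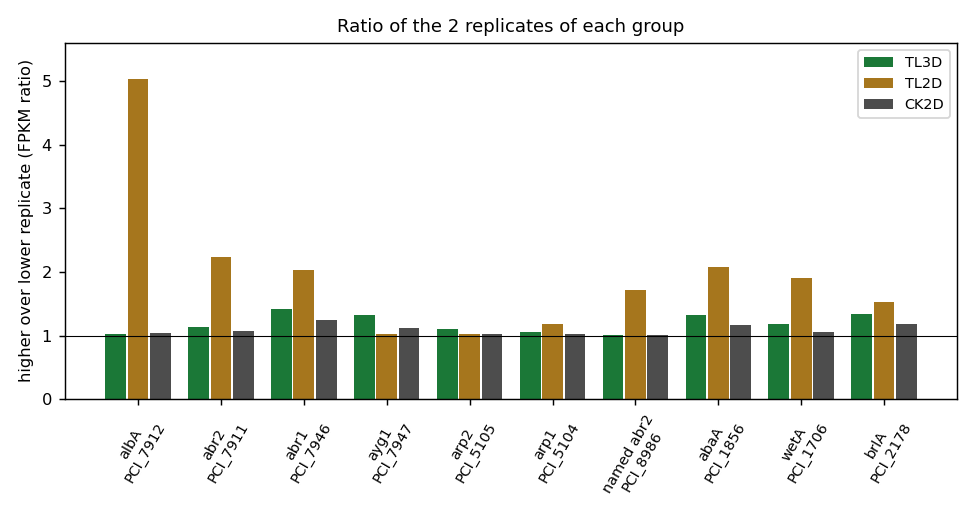
Ratio of the higher to the lower replicate in FPKM, on a linear axis from 0, for pigment, pathway and regulator genes in TL3D, TL2D and CK2D. The TL2D bar of albA reaches 5.03, while the TL2D bars of ayg1, arp2 and arp1 lie between 1.02 and 1.18.

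The remaining names did not follow together. The gene PCI_8986 is also named laccase abr2 and had 77.3 and 78.2 FPKM in TL3D libraries, 36.8 and 21.4 FPKM in TL2D libraries, and 131 and 131 FPKM in CK2D libraries. It fell in TL2D against CK2D (log2 −2.18 ± 0.26, limma adjusted p = 0.00477, but 0.0521 without either CK2D replicate) and rose in TL3D against TL2D (1.44 ± 0.26, adjusted p = 0.0394). A gene with a scytalone dehydratase-like name, PCI_1167, went the other way, with 30.5 and 38.0 FPKM in TL3D libraries, 35.8 and 25.2 FPKM in TL2D libraries, and 4.14 and 4.94 FPKM in CK2D libraries (log2 2.49 ± 0.21 for TL2D against CK2D, limma adjusted p = 0.00203). The trihydroxynaphthalene reductase gene PfmaI (PCI_8012) had means of 105 ± 4.87 FPKM in TL3D, 84.2 ± 9.78 FPKM in TL2D and 94.3 ± 2.80 FPKM in CK2D (SD, n = 2 each) and passed no limma test (adjusted p from 0.157 to 0.271). A last gene named abr2, PCI_2282, stayed under 0.40 FPKM in all libraries and was not tested. How far genes that share a name share sequence, and so reads, was not examined.

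A fit with 1 library in a group takes its spread from the other group alone. In TL3D against CK2D the TL2D pair takes no part. In the comparisons with TL2D, a fit without a TL3D or CK2D replicate uses the TL2D pair, which lay farthest apart. Calls lost in such fits do not single out a library. The calls in TL3D against TL2D used both TL3D libraries. Without either of them limma passed 0 of 8222 genes, with 1074 genes at an unadjusted p under 0.05 without TL3D replicate 1 and 1198 without TL3D replicate 2. The log2 difference of ayg1 was then 2.67 and 2.26, with adjusted p = 0.271 and 0.193. In TL2D against CK2D the calls of ayg1, arp2, arp1 and PCI_1167 held with any 1 library left out.

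Genes with neighbouring numbers were tested in the same way. Of the 10 genes within 5 numbers of albA and abr2, 9 were tested, and 3 fell and 1 rose in TL2D against CK2D, with a median log2 difference of −0.04 (29.4% and 24.8% of all tested genes fell and rose). None of these 9 passed in TL3D against TL2D (limma, adjusted p from 0.118 to 0.742; 2 had an unadjusted p under 0.05). The largest fall was that of PCI_7910, cytokinesis protein 3, next to abr2, at −1.22 ± 0.15. PCI_7910, the lid2 gene PCI_7906 and the unnamed gene PCI_7915, the 3 that fell, had the signs of the pigment genes in all comparisons, at 0.46, 0.32 and 0.07 in TL3D against TL2D and −0.75, −0.57 and −0.45 in TL3D against CK2D. Next to albA, the histone deacetylase subunit gene PCI_7913 had 21.9 and 21.3 FPKM in TL3D libraries, 20.1 and 18.8 FPKM in TL2D libraries, and 20.2 and 19.8 FPKM in CK2D libraries.

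Of the 10 genes around abr1, 9 were tested. In TL2D against CK2D, 5 of them rose, and ayg1 alone fell (median 0.35), where 24.8% of all tested genes rose and 29.4% fell. In TL3D against TL2D ayg1 alone rose and the regulator gene PCI_7951 alone fell (−0.68 ± 0.11, limma adjusted p = 0.0329). Over all tested genes 6.77% rose and 3.3% fell there. The gene ayg1 is also counted among the pathway names above. Directly before abr1, the unnamed gene PCI_7945 had 94.2 and 97.1 FPKM in TL3D libraries, 115.7 and 90.3 FPKM in TL2D libraries, and 58.5 and 59.4 FPKM in CK2D libraries, the reverse of abr1 between leaves and plates. Genome positions were not used here, so closeness of numbers is all that is known of closeness of genes.

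**Figure D4:**
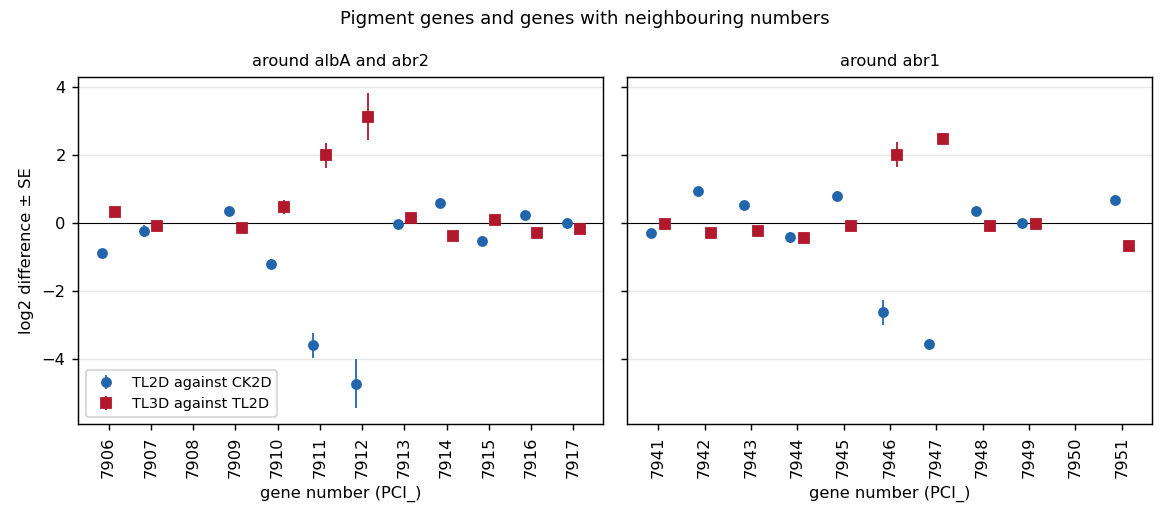
Log2 difference ± SE (limma, n = 2 libraries per group) against gene number around albA and abr2 (left) and around abr1 (right), for TL2D against CK2D (circles) and TL3D against TL2D (squares). PCI_7911, PCI_7912, PCI_7946 and PCI_7947 lie farthest from 0, and the other tested genes shown lie between −1.22 and 0.94; PCI_7908 and PCI_7950 were not tested.

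Among 17 conidiation regulators, wetA, vosA and velvet complex subunit B fell in TL2D against CK2D and rose in TL3D against TL2D. In TL2D against CK2D 6 of the 17 fell and 7 rose, with a median of −0.11, where 29.4% of all tested genes fell and 24.8% rose. The gene wetA (PCI_1706), which governs spore maturation, had 131 and 155 FPKM in TL3D libraries, 34.4 and 18.1 FPKM in TL2D libraries, and 185 and 175 FPKM in CK2D libraries. The wetA level fell in TL2D against CK2D (log2 −2.80 ± 0.31, limma adjusted p = 0.00387) and rose in TL3D against TL2D (2.46 ± 0.31, adjusted p = 0.0222). The spore development regulator vosA (PCI_8689) fell (−1.94 ± 0.22) and rose (1.77 ± 0.22), and so did velvet complex subunit B (PCI_5145; −1.31 ± 0.19 and 1.17 ± 0.18), its known partner in *Aspergillus* (limma adjusted p from 0.00422 to 0.0303).

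The gene abaA (PCI_1856), which shapes the spore-bearing cells, had 38.4 and 50.9 FPKM in TL3D libraries, 22.2 and 10.7 FPKM in TL2D libraries, and 88.1 and 76.0 FPKM in CK2D libraries. It fell in TL2D against CK2D (log2 −2.33 ± 0.35, limma adjusted p = 0.00762), and in TL3D against TL2D it had 1.46 ± 0.36 (adjusted p = 0.0694). The first regulator of the chain, brlA (PCI_2178), had 211 and 281 FPKM in TL3D libraries, 212 and 139 FPKM in TL2D libraries, and 490 and 412 FPKM in CK2D libraries. The brlA level fell in TL2D against CK2D (−1.38 ± 0.23, limma adjusted p = 0.0102) and overlapped between the leaf days (0.50 ± 0.25, adjusted p = 0.253). Libraries labelled as mycelium thus held transcripts of spore-forming regulators in every group, and the part of the spore-forming stage in the pigment genes' values was not tested.

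The oxygenase gene PCI_0822, named psi-producing oxygenase A for enzymes that make the hormone-like psi factors, had 88.5 and 72.4 FPKM in TL3D libraries, 15.2 and 0.755 FPKM in TL2D libraries, and 134 and 133 FPKM in CK2D libraries. It fell in TL2D against CK2D (log2 −4.66 ± 1.07, limma adjusted p = 0.0224), by −6.26 without TL2D replicate 1 and −3.05 without TL2D replicate 2. The regulators that rose in TL2D against CK2D included velC (PCI_1944, 1.75 ± 0.09), veA (PCI_1579, 0.63 ± 0.12), flbA (PCI_0977, 0.51 ± 0.11), fluG (PCI_0893, 0.57 ± 0.09) and steA (PCI_7708, 0.43 ± 0.11), with limma adjusted p from 0.000899 to 0.0306. The other 2 were a laeA gene (PCI_6080, 1.80 ± 0.23) and a second psi oxygenase gene (PCI_8678, 1.52 ± 0.24). No call was made in TL2D against CK2D for another fluG gene (PCI_8696, −0.42 ± 0.14) or another laeA gene (PCI_0056, −0.11 ± 0.13). The same held for stuA (PCI_2619, −0.21 ± 0.20) and hymA (PCI_5355, 0.23 ± 0.10). Without a CK2D replicate the calls of brlA, abaA, PCI_5145, PCI_0822, veA, flbA, fluG, steA and PCI_8678 were lost with either one, that of vosA with replicate 1 left out, and those of wetA, velC and PCI_6080 with neither. In TL3D against TL2D, 4 regulators rose and 0 fell (limma; 8 had an unadjusted p under 0.05), where 6.77% of all tested genes rose and 3.3% fell. In TL3D against CK2D 4 rose and 6 fell, where 28.1% of all tested genes rose and 30.2% fell.

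**Figure D5:**
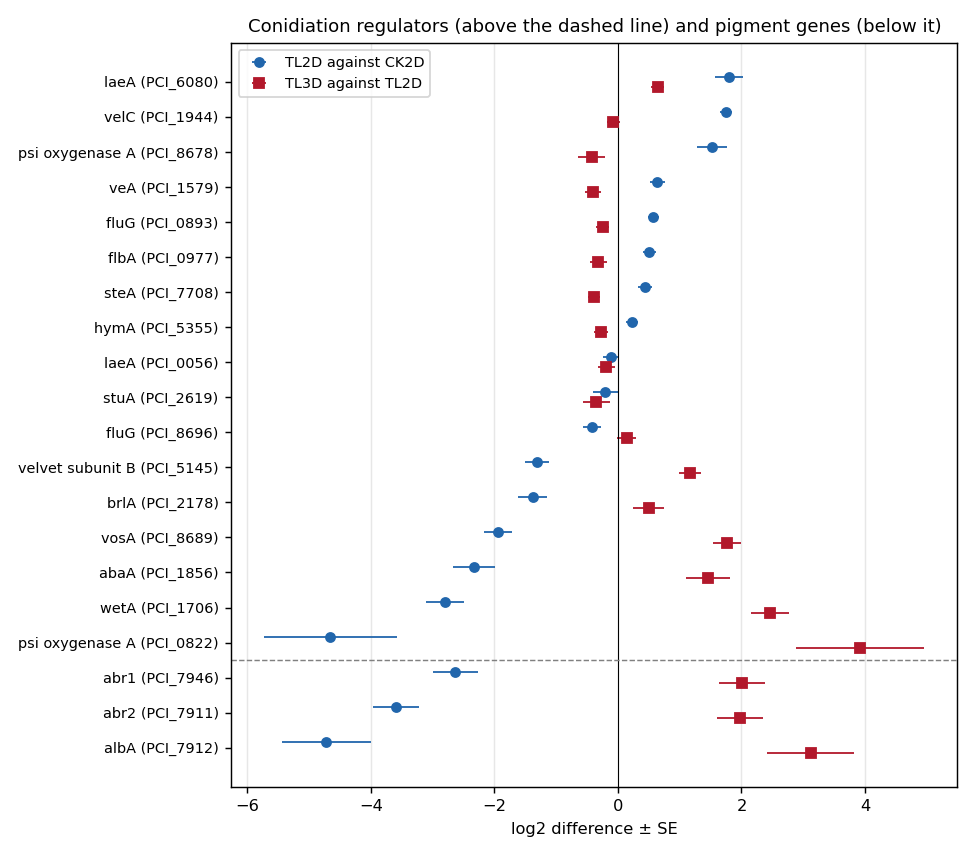
Log2 difference ± SE (limma, n = 2 libraries per group) of 17 conidiation regulators and, below the dashed line, abr1, abr2 and albA, for TL2D against CK2D (circles) and TL3D against TL2D (squares). The genes wetA, abaA, brlA, vosA, velvet subunit B, PCI_0822 and the fluG gene PCI_8696 share the signs of the pigment genes, though not all were called. The genes velC, veA, flbA and the fluG gene PCI_0893 lie on the other side in TL2D against CK2D.

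Genes with names tied to the spore or its surface split, and the regulator vosA is counted here too. Of 12 tested genes with hydrophobin, spore or sporulation names, 3 rose and 6 fell in TL2D against CK2D (median −0.89), 5 of 11 rose and 2 fell in TL3D against TL2D (0.18), and 4 of 12 rose and 3 fell in TL3D against CK2D (−0.02). Over all tested genes, 24.8% rose and 29.4% fell in the first of these comparisons, 6.77% and 3.3% in the next, and 28.1% and 30.2% in the last. The hydrophobin gene PCI_0227, for a protein that coats fungal surfaces, had 15365 and 17804 FPKM in TL3D libraries, 6085 and 3764 FPKM in TL2D libraries, and 17134 and 16188 FPKM in CK2D libraries. Its TL3D libraries thus overlapped those of CK2D, which those of the pigment genes did not. The outer spore wall gene PCI_7062 likewise had 26.4 and 24.4 FPKM in TL3D libraries, 8.29 and 8.73 FPKM in TL2D libraries, and 24.7 and 27.02 FPKM in CK2D libraries. In contrast the hydrophobin gene PCI_9301 had 164 and 183 FPKM in TL3D libraries, 395 and 298 FPKM in TL2D libraries, and 2.26 and 1.98 FPKM in CK2D libraries. The hydrophobin genes PCI_8314 and PCI_2310 rose in TL3D against TL2D (log2 2.69 ± 0.45 and 2.09 ± 0.33). Both also rose in TL3D against CK2D (1.25 ± 0.08 and 1.18 ± 0.10). PCI_2115, also a hydrophobin gene, rose in TL2D against CK2D (2.42 ± 0.19) and fell in TL3D against TL2D (−1.53 ± 0.16).

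Laccases, multicopper oxidases and tyrosinases are all copper enzymes that oxidise phenols or metals. Of 6 tested laccase, multicopper oxidase and tyrosinase genes, 1 rose and 4 fell in TL2D against CK2D (median −1.003; 24.8% and 29.4% of all tested genes), 1 rose and 1 fell in TL3D against TL2D (−0.06; 6.77% and 3.3%), and 0 rose and 4 fell in TL3D against CK2D (−0.55; 28.1% and 30.2%). This list holds PCI_8986 too. The tyrosinase P gene PCI_5190 was the only other one above 20 FPKM and exceeded abr2 in every leaf library, with 148 and 159 FPKM in TL3D libraries, 262 and 270 FPKM in TL2D libraries, and 189 and 168 FPKM in CK2D libraries. Its order was thus opposite to that of the pigment genes on leaves. The tyrosinase gene PCI_3186 fell in TL3D against CK2D (log2 −1.35 ± 0.15, limma adjusted p = 0.000269).

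Laccases need copper to work, and of 10 tested genes of copper transport and handling 0 rose and 6 fell in TL2D against CK2D (median −0.66), 1 rose and 1 fell in TL3D against TL2D (0.08), and 1 rose and 6 fell in TL3D against CK2D (−0.55). The shares of all tested genes that fell were 29.4%, 3.3% and 30.2% in these comparisons, and 24.8%, 6.77% and 28.1% rose. The Ctr copper transporter gene PCI_7211 had 7.74 and 7.42 FPKM in TL3D libraries, 1.00 and 1.25 FPKM in TL2D libraries, and 21.1 and 17.2 FPKM in CK2D libraries. The transporter gene fell in TL2D against CK2D (log2 −3.24 ± 0.17, limma adjusted p = 0.00081) and rose in TL3D against TL2D (2.02 ± 0.15, adjusted p = 0.0126). The low affinity transporter gene PCI_9120 had instead its lowest values at day 3, with 16.9 and 15.5 FPKM in TL3D libraries, 34.7 and 29.6 FPKM in TL2D libraries, and 60.5 and 62.2 FPKM in CK2D libraries.

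Among genes matched by polyketide synthase names, 2 of 19 tested rose and 11 fell in TL2D against CK2D (median −0.84), 2 of 16 rose and 2 fell in TL3D against TL2D (−0.13), and 3 of 19 rose and 12 fell in TL3D against CK2D (−0.94). Among all tested genes 29.4%, 3.3% and 30.2% fell in these comparisons, and 24.8%, 6.77% and 28.1% rose. The list also holds 6-methylsalicylic acid decarboxylases, which are no synthases, and PCI_2758 among them had the largest rise in TL2D against CK2D (2.22 ± 0.21, limma adjusted p = 0.00269). The synthase genes of the yellow sorbicillinoids and of citrinin were well expressed on plates, at lower levels than albA, and near 0 on leaves. The gene sorB (PCI_3055) had 1.86 and 1.96 FPKM in TL3D libraries, 2.35 and 1.83 FPKM in TL2D libraries, and 241 and 272 FPKM in CK2D libraries. The citrinin synthase gene PCI_3406 had 0.188 and 0.110 FPKM in TL3D libraries, against 197 and 198 FPKM in CK2D libraries. Means in TL3D were thus 0.744% of CK2D for sorB and 0.0756% for PCI_3406, beside 32.7% for albA.

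Of 6 genes that supply or prime polyketide synthases, 0 rose and 3 fell in TL2D against CK2D (median −0.36), 0 rose and 0 fell in TL3D against TL2D (−0.18; limma, with 2 at an unadjusted p under 0.05), and 0 rose and 5 fell in TL3D against CK2D (−0.47). The falls compare with 29.4%, 3.3% and 30.2% of all tested genes, and the absent rises with 24.8%, 6.77% and 28.1%. Acetyl-CoA carboxylase (PCI_2724), which makes the malonyl units, had 58.8 and 73.2 FPKM in TL3D libraries, 74.6 and 87.3 FPKM in TL2D libraries, and 221 and 255 FPKM in CK2D libraries. Its TL3D libraries were both below its TL2D libraries, as in 33.9% of all tested genes. That difference was not called (log2 −0.29 ± 0.15, limma adjusted p = 0.268). The phosphopantetheinyl transferase A gene PCI_2707, for the kind of enzyme that arms polyketide synthases, ranged from 12.8 to 16.0 FPKM over the 6 libraries and passed no test.

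Likeness of pattern was measured as the root mean square difference over the 6 libraries between log2(FPKM + 1) values, each gene centred on its own mean. Small values mean profiles of like shape and size, and the libraries behind them are the same for every gene. The 5 nearest genes to abr2 were PCI_5147 (secreted protein RBT4, 0.167), PCI_7066 (unnamed, 0.188), PCI_5384 (F-box domain protein, 0.194), PCI_9364 (aurasperone B cluster protein A, 0.228) and PCI_3658 (hetero-Diels-Alderase, 0.236). PCI_9364 had 85.9 and 78.9 FPKM in TL3D libraries, 20.2 and 10.8 FPKM in TL2D libraries, and 211 and 247 FPKM in CK2D libraries.

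Nearest to albA were PCI_3325 (histidine phosphatase, 0.213), PCI_8006 (O-methyltransferase xanE, 0.311), PCI_8413 (unnamed, 0.354), PCI_8007 (indoleamine 2,3-dioxygenase, 0.388) and PCI_1265 (phenol hydroxylase, 0.390). They share with albA a low TL2D replicate 2, as in PCI_3325, which had 54.5 and 44.6 FPKM in TL3D libraries, 9.44 and 0.991 FPKM in TL2D libraries, and 112 and 117 FPKM in CK2D libraries. Nearest to abr1 were PCI_7897 (class III chitinase, 0.140), PCI_3660 (lipopolysaccharide-modifying protein, 0.149), PCI_6119 (unnamed, 0.149), PCI_0704 (UPF0442 protein, 0.151) and PCI_7498 (endoplasmic reticulum membrane protein, 0.186).

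The pigment genes were not each other's closest matches. Among 8406 genes ranked by likeness to abr2, arp2 stood in place 12, arp1 in place 20, ayg1 in place 22, abr1 in place 39, abaA in place 50, wetA in place 54 and albA in place 96. Ranked by likeness to abr1, wetA stood in place 10, abaA in place 14, PCI_8986 in place 35 and abr2 in place 117, while albA came in place 1388. In that ranking ayg1 was in place 124, arp2 in place 166 and arp1 in place 191. Ranked by likeness to albA, PCI_0822 stood in place 10, abr2 in place 16, ayg1 in place 34, arp2 in place 42 and abr1 in place 56. By likeness to abr2 and to abr1, PCI_0822 stood only in places 550 and 4055. The mean profile of the 3 genes lay nearest to PCI_5147 (0.178), PCI_3658 (0.185), PCI_7144 (sodium transport ATPase 2, 0.194), PCI_8008 (lactate 2-monooxygenase, 0.211) and PCI_7066 (0.221).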

How the data were processed

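The authors deposited FPKM per replicate for 9385 genes, per the file headers. Cufflinks appears in the submitters' processing notes; aligner, build and annotation: not given in the sources used here. Further deposited columns are a fold change (ratio of mean FPKM), its log2 and an FDR, the authors' adjusted p-value. FPKM summed to between 582600 and 614206 per library. Low values share no common step (at most 8 of 207 genes at 1 ratio in TL2D), so depth stays unknown and no counting interval is given. The RefSeq table matched 0 of 9385 gene numbers.

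Tests used log2(FPKM + 1) in R 4.3.3 with limma 3.58.1 (eBayes with trend, 2 residual degrees of freedom), on genes reaching 1 FPKM in 2 or more of the 4 libraries compared. The fit was tested on simulated data with the same spread in every library. The groups here differed in spread, so that test does not vouch for the calls. Named were the pigment genes, the pigment and regulator lists and the 5 nearest profiles. Of the called extremes of the other 5 lists and the genes within 5 numbers, only some were named. PCI_3055, PCI_2707 and any other gene outside these groups were named after their values were seen. Genes and lists were chosen with earlier results of these data known. Alternatives were a pseudocount of 0.1, no filter, 2 scalings, 1 fit over 6 libraries, a replicate block, each replicate left out, and the deposited FDR.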

Additional observations from a re-analysis of the deposited data

How the results depend on the processing

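The log2 differences of albA, abr2 and abr1 kept their sign in 90 alternative values, but no filter, the 6-library fit and the replicate block cannot move a difference of means, and with 2 replicates leaving one out cannot move it past 1 SD. With replicates left out, the range was −5.81 to −3.64 for albA, −4.15 to −3.05 for abr2 and −3.13 to −2.13 for abr1 in TL2D against CK2D, 2.04 to 4.20, 1.43 to 2.53 and 1.504 to 2.51 in TL3D against TL2D, and −1.63 to −1.57, −1.70 to −1.53 and −0.87 to −0.37 in TL3D against CK2D. Genes called numbered 4493, 828 and 4873 in these comparisons. They ranged from 1131 to 5229, 0 to 3251 and 3673 to 4324 with 1 replicate left out, where the lone library is assumed to vary like the other group. TL3D against TL2D gave 1515 calls in a fit over all 6 libraries and 1842 by the authors' deposited FDR. Median log ratio scaling moved the median of TL2D against CK2D by 0.10 and gave 2312 rises and 2117 falls, against 2054 and 2439. Replicate numbers pair no libraries per the labels (correlations of same-numbered deviations −0.08, 0.17 and −0.25). With the replicate block 3568, 739 and 4368 genes were called, and 24 of 27, 7 of 9 and 20 of 24 calls among the pathway, regulator and neighbouring genes remained. Of the 27 calls in TL2D against CK2D, 7 remained without CK2D replicate 1 and 8 without CK2D replicate 2, and 0 of the 9 in TL3D against TL2D remained without either TL3D replicate. With a pseudocount of 0.1, 3, 4 and 3 of the 5 nearest profiles of abr2, albA and abr1 remained. Read depth is unknown, which limits all values near 0.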
